A study of Mus musculus with 4 samples.

Results

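Genes of the Six-Eya-Dach network were followed here in the distal mouse limb bud with and without its terminal Hox genes. They are represented by 8 of the 18194 genes on the array, namely Six2, Six4, Six5, Eya1, Eya2, Eya3, Eya4 and Dach1. All probe sets that the platform annotation gives to exactly 1 of these genes were taken, which were 21 of 45101. The rule uses no measured value. A probe set is a group of short probes read together as 1 signal for a transcript.

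RNA came from the autopod, the hand and foot part of the limb bud, of C57BL/6 embryos at E11.25 (days of embryonic development), and each of the 4 samples was hybridised to its own Affymetrix array. The 2 Hox13dKO samples lacked Hoxa13 on both chromosomes (Hoxa13-/-) and also had both copies of Hoxd11, Hoxd12 and Hoxd13 deleted together (HoxDdel/del). The 2 wild-type samples carried neither change. In both groups the tissue was cut to match the region where Hoxd13 is expressed, and fore- and hindlimb pieces entered together, so each value averages over both limbs. Both alleles are carried by every cell of the embryo, and how many embryos made up a sample is not stated. The comparison asks which transcripts differ when the Hox genes of the hand and foot are missing.

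Six-family proteins are homeodomain transcription factors. Eya proteins do not bind DNA by themselves but join them as coactivators and also act as protein phosphatases, while Dach proteins, related to the Ski corepressors, can turn the same complexes towards repression. The network was first worked out with Pax genes in the fly eye and is known in vertebrates from kidney, ear, muscle and limb. In the mouse limb bud, Dach1 is known from distal mesenchyme, and Six-family and Eya genes from muscle precursors and from the connective tissue that becomes tendon. In the kidney, Hox proteins of paralogue group 11 are known to act with Eya1 on Six2, and in the branchial arches Hoxa2 is known to repress Six2.

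The values are MAS5 signals on a linear scale, which the authors scaled to a common trimmed mean of 500.003 units per array. Across probe sets, which are not independent replicates, log2 signals had r = 0.958 within Hox13dKO and 0.955 within wild type, and 0.948 to 0.965 between groups. The ratio of 5' to 3' actin signal, a sign of RNA integrity, was 0.728 and 0.771 in Hox13dKO, against 0.473 and 0.764 in wild type, replicate 1 being the low one. All 4 genes named in the mutant alleles read lower on both Hox13dKO arrays, but not equally far down. Hoxd13 read 5.79 and 9.58 in Hox13dKO against 14540 and 16117 in wild type, Hoxd12 read 5.23 and 33.5 against 1208 and 2171, and Hoxa13 read 52.4 and 58.0 against 842 and 1463. Hoxd11, labelled as deleted, kept a signal of 348 and 454 in Hox13dKO against 1831 and 1745 in wild type, far above the floor of 14.1 units set here for dim signals. Where its probes lie relative to the deletion is not known here. Limb mesenchyme genes such as Prrx1 and Twist1 were bright on all arrays, and 10 of 10 listed ones passed the brightness filter.

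Dach1 stood lower in the Hox13dKO autopod by 2 of its 3 probe sets, while the Six-family and Eya genes differed by less, or not in the same way across their own probe sets. By the brightest Dach1 probe set the transcript was 2.67-fold lower, but with 2 arrays per group neither this nor any other member passed the test. Eya3 and Six5 read nearly the same in both groups. Signals of Eya2 and of most Eya1 and Eya4 probe sets were too dim to show a difference of moderate size.

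Of the 21 probe sets, 17 passed the filter on dim signals, with at least 1 for each of the 8 genes. The filter asked for a geometric mean of at least 39.6 units over the 4 arrays. The groups were compared with the linear models of limma, and p-values were adjusted over all 27022 probe sets tested. At an adjusted p under 0.05, 0 of the 17 passed, in a comparison where 0.207% of all probe sets did (0.0925% lower and 0.115% higher). At an unadjusted p under 0.05 there were 3 of 17, against 6.26% of all. They were 2 probe sets of Dach1 and 1 of Six4. Of the 17, 12 had a negative and 5 a positive log2 difference. Both Hox13dKO arrays lay below both wild-type arrays in 5 (18.3% of all probe sets tested), both lay above in 1 (16.3%), and the groups overlapped in 11, while 34.6% of all probe sets did not overlap in either direction. Probe sets of 1 gene share a transcript, so these counts do not stand for independent genes. With 2 arrays per group an exact permutation test of a single value cannot go below p = 0.333, two-sided, and the arrays' number limits the precision. The samples of a group are called biological replicates in their titles, without saying that they came from different litters. The p-values and SE therefore concern the spread between these samples only. In the fit as reported, limma averages the spread of each probe set with that typical of probe sets of like brightness. The weights were 2 for the probe set itself and 6.05 for the typical value.

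**Figure D1:**
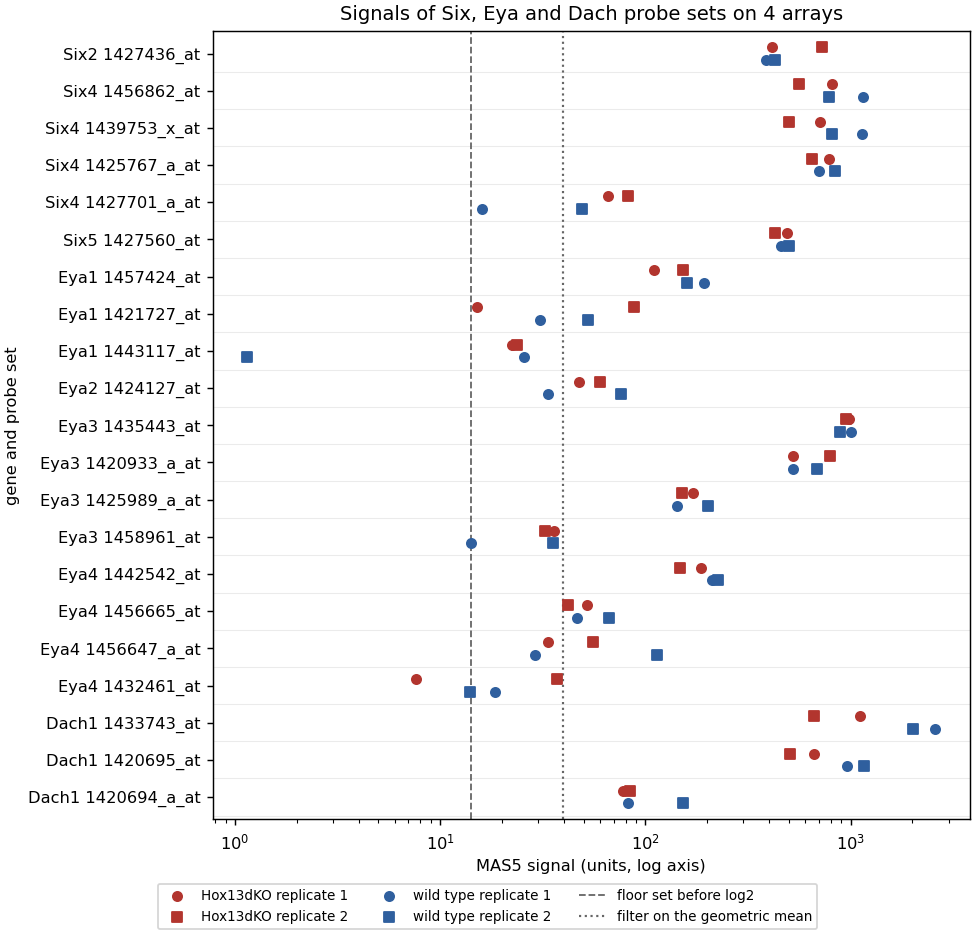
MAS5 signal on a log axis for each of the 21 probe sets, with Hox13dKO in red above wild type in blue in every row, circles for replicate 1 and squares for replicate 2, and vertical lines at the floor of 14.1 and the filter of 39.6 units. The Dach1 probe sets 1433743_at and 1420695_at show both red points left of both blue points, and the dim Eya probe sets scatter around the filter.

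Dach1 encodes a nuclear protein of the Dachshund family that acts as a transcriptional corepressor. Its brightest probe set, 1433743_at, read 1106 and 661 in Hox13dKO, against 2582 and 2013 in wild type. Both Hox13dKO arrays lay well under both wild-type arrays, and replicate 1 was the higher one in each group. Averages over 2 arrays were 883 ± 315 (SD) in Hox13dKO and 2297 ± 402 in wild type. The log2 difference was -1.42 ± 0.25 (SE), with a 95% interval from -1.99 to -0.84 and an adjusted p of 0.102 in limma. Of all probe sets tested, 286 of 27022, or 1.06%, had a more negative difference. In bulk tissue, fewer cells that express a gene and less RNA per cell cannot be told apart.

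The second Dach1 probe set, 1420695_at, read 662 and 509 in Hox13dKO, against 962 and 1156 in wild type. Again the arrays of the groups were separate, with a log2 difference of -0.86 ± 0.20 (SE), or 1.82-fold lower, and an adjusted p of 0.256 in limma. The third, 1420694_a_at, was designed from the same sequence record as the second but was much dimmer, at 77.5 and 83.7 in Hox13dKO against 82.2 and 153 in wild type. There wild type replicate 1 lay between the Hox13dKO arrays, so the groups overlapped. Its log2 difference was -0.48 ± 0.48 with an interval from -1.58 to 0.62, which holds the values of the other two. Where the probes lie along the transcript is not known here.

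No Dach1 probe set passed as reported, and whether one passed depended on single wild-type arrays, the processing and the model. Over the 15 alternatives, the adjusted p of 1433743_at in limma went up to 0.665. For 1433743_at the adjusted p in limma was 0.0998 with Hox13dKO replicate 1 left out and 0.433 with Hox13dKO replicate 2 left out, against 0.00540 with wild type replicate 1 and 0.000133 with wild type replicate 2 left out, while the log2 difference stayed between -1.79 and -1.04. For 1420695_at the adjusted p was 0.0425 without wild type replicate 1. A group left with 1 array takes its spread from the other group in these fits.

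**Figure D2:**
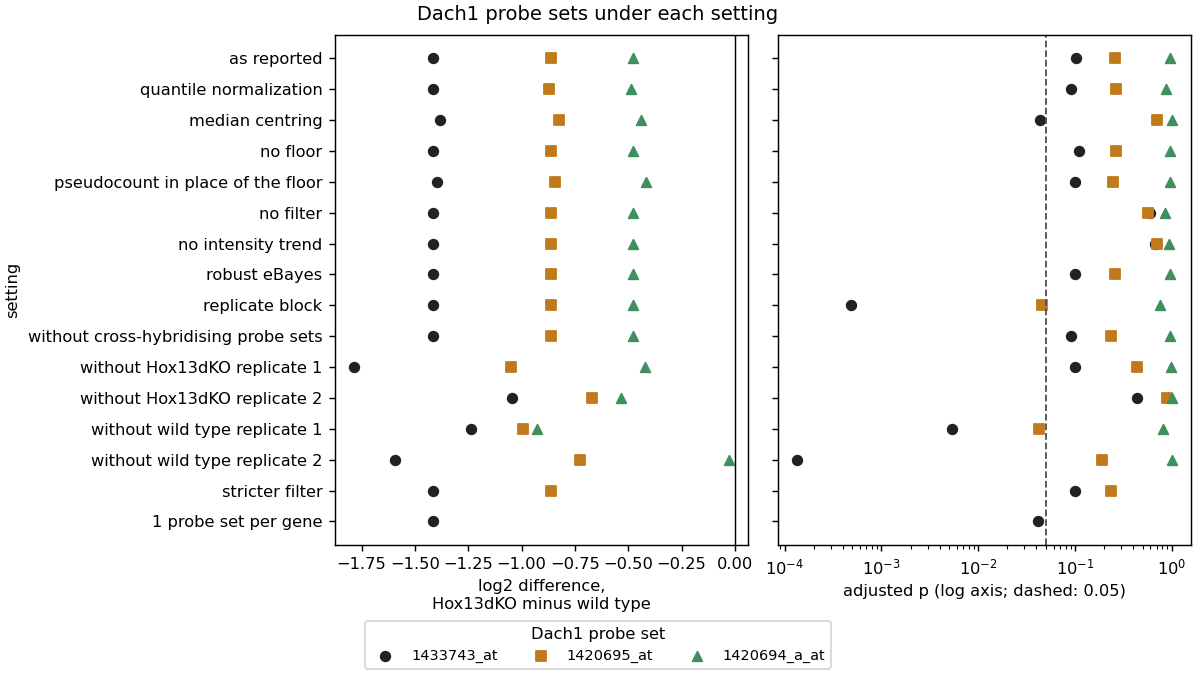
Log2 difference, Hox13dKO minus wild type (left), and adjusted p on a log axis (right) of the 3 Dach1 probe sets as reported and under each alternative setting, the dashed line marking 0.05. All differences lie below 0, and the black circles of 1433743_at pass 0.05 in 5 of 15 alternatives.

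The 250 bases before the annotated start of Dach1 are shown because it is the member with the most negative difference, and those of Six4 because 1 of its probe sets is the other with an unadjusted p under 0.05. Both come from RefSeq on GRCm38.p6, minus strand, chr14:98169766-98170015 for Dach1 and chr12:73113246-73113495 for the first of 2 Six4 starts. Capitals mark the only motif match.
Dach1: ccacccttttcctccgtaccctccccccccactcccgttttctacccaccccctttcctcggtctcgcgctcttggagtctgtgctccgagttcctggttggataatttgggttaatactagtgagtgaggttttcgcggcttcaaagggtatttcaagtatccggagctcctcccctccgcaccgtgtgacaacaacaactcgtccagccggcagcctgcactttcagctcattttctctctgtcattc
Six4: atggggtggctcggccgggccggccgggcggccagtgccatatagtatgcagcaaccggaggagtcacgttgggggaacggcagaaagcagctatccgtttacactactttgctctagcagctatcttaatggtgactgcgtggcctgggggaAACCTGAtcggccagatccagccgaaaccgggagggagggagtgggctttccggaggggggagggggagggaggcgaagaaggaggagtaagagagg
The motifs searched, on both strands, were TCAGGTT, the core of the MEF3 element that Six-family factors bind in muscle genes, and CAATAAA and TCGTAAA, which are forms bound by HOX13 proteins. TCAGGTT occurred on the reverse strand in the Six4 window, starting 97 bases before the start of transcription, and in 3.49% of all 32851 promoter windows of this length. CAATAAA occurred in 4.20% and TCGTAAA in 0.478% of all windows, and in 0 of the 8 windows found for 6 of the member genes. These matches are a description of the letters in the window. The Dach1 window had a G+C content of 54.8%, the lowest of the 8, and the first Six4 window 62.0%.

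Six2 encodes a homeodomain factor that keeps kidney progenitors undifferentiated. Its single probe set, 1427436_at, read 416 and 724 in Hox13dKO, against 386 and 428 in wild type. The higher mean of Hox13dKO rested on replicate 2, since replicate 1 lay between the wild-type arrays. Averages over 2 arrays were 570.0 ± 218 (SD) in Hox13dKO and 407 ± 29.3 in wild type, and the log2 difference was 0.43 ± 0.28 (SE; adjusted p = 0.907 in limma), with an interval from -0.22 to 1.08. Leaving out Hox13dKO replicate 1 gave 0.83, and leaving out Hox13dKO replicate 2 gave 0.034.

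Of the Hox genes named above as acting on Six2 elsewhere, Hoxa11 was higher and Hoxd11 lower past the threshold, while Hoxa2 did not pass. Hoxa11 was 5490 and 5628 in Hox13dKO against 1568 and 1492 in wild type (log2 difference 1.86 ± 0.13 SE, adjusted p = 0.00423 in limma, 0.321 with no filter and 0.591 with no intensity trend). Hoxa2 read 127 and 140 in Hox13dKO against 53.5 and 53.6 in wild type, which did not pass (1.32 ± 0.45, adjusted p = 0.608). Hoxd11, labelled as deleted, was lower in Hox13dKO but kept the signal given above. These values stand beside those of Six2, and their part in them was not tested. Six3, the gene next to Six2 on chromosome 17, was dim, with 62.8 and 98.0 in Hox13dKO against 111 and 57.5 in wild type by its brightest probe set (-0.02 ± 0.55).

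Six4 encodes a Six-family factor that takes part in muscle formation, and its 4 probe sets did not give 1 answer. The brightest, 1456862_at, read 814 and 562 in Hox13dKO, against 1150 and 782 in wild type, so Hox13dKO replicate 1 lay above wild type replicate 2. Its log2 difference was -0.49 ± 0.25 (SE). The probe set 1439753_x_at, designed from the same sequence record and of a type that may bind other transcripts, read 709 and 501 in Hox13dKO, against 1130 and 813 in wild type. Its arrays did not overlap, and its difference was -0.69 ± 0.24 (adjusted p = 0.627 in limma). These 2 probe sets share their source, and both are higher in replicate 1 of each group.

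The remaining Six4 probe sets did not follow. By 1425767_a_at the signal was 788 and 645 in Hox13dKO against 699 and 838 in wild type, with a difference of -0.10 ± 0.19 (SE) and an interval from -0.55 to 0.34. By 1427701_a_at it was 66.0 and 82.4 in Hox13dKO against 15.9 and 49.0 in wild type, the only member probe set with both Hox13dKO arrays above both wild-type arrays. That difference of 1.40 ± 0.76 (adjusted p = 0.883) rests on signals close to the floor of 14.1 units. A bright and a dim probe set of Six4 thus differed in opposite directions, neither past the threshold.

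Six5 encodes a Six-family factor whose gene lies beside Dmpk, the gene of myotonic dystrophy. It read 488 and 430 in Hox13dKO, against 459 and 502 in wild type by 1427560_at. The arrays interleaved, and the difference was -0.07 ± 0.20 (SE; adjusted p = 0.982 in limma), with an interval from -0.54 to 0.40.

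Eya3, the broadly expressed member of the Eya family, was measured by 3 tested probe sets and all 3 overlapped between groups. Its brightest, 1435443_at, read 983 and 950 in Hox13dKO, against 1003 and 888 in wild type. Both Hox13dKO arrays lay between the wild-type arrays, and the averages were 966 ± 23.0 (SD, n = 2) in Hox13dKO and 945 ± 81.2 in wild type. The log2 difference of 0.03 ± 0.16 (SE) had the smallest error of any member, with an interval from -0.34 to 0.41. By 1420933_a_at the signals were 526 and 790 in Hox13dKO against 523 and 688 in wild type (0.11 ± 0.25), and by 1425989_a_at 171 and 152 against 143 and 201 (-0.07 ± 0.34). The fourth, 1458961_at, was under the filter, at 35.7 and 32.4 against 14.1 and 35.3.

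Eya1 encodes the Eya coactivator whose loss causes branchio-oto-renal syndrome in humans. Its only tested probe set, 1457424_at, read 110.0 and 152 in Hox13dKO, against 193 and 159 in wild type. Hox13dKO was lower on both arrays, although its replicate 2 came close to wild type replicate 2. The difference was -0.44 ± 0.36 (SE; adjusted p = 0.934 in limma). Under the filter, 1421727_at read 15.1 and 87.7 in Hox13dKO against 30.8 and 52.7 in wild type, a spread within Hox13dKO wider than any gap between groups. The last, 1443117_at, read 22.4 and 23.7 in Hox13dKO against 25.6 and 1.15 in wild type, where 1 wild-type array lay below the floor.

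Eya4, whose loss affects hearing and the heart in humans, had 3 tested probe sets, all with negative differences. The brightest, 1442542_at, read 187 and 147 in Hox13dKO, against 212 and 227 in wild type. The arrays were separate, with a difference of -0.40 ± 0.31 (SE; adjusted p = 0.929 in limma) and an interval from -1.11 to 0.31. The dim probe sets 1456665_at, at 52.1 and 41.8 against 46.2 and 66.1, and 1456647_a_at, at 33.7 and 55.4 against 29.1 and 114, overlapped between groups (-0.24 ± 0.62 and -0.41 ± 0.80). The fourth, 1432461_at, had 1 array of each group below the floor and was not tested, at 7.60 and 37.1 in Hox13dKO against 18.4 and 14.0 in wild type.

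Eya2, another Eya coactivator of muscle and sensory placodes, was dim by its only probe set, 1424127_at. It read 47.4 and 60.4 in Hox13dKO, which lay between the wild-type values of 33.6 and 76.4. The difference was 0.08 ± 0.67 (SE; adjusted p = 0.993 in limma). Its interval, from -1.45 to 1.61, leaves room for more than a 2-fold change either way.

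**Figure D3:**
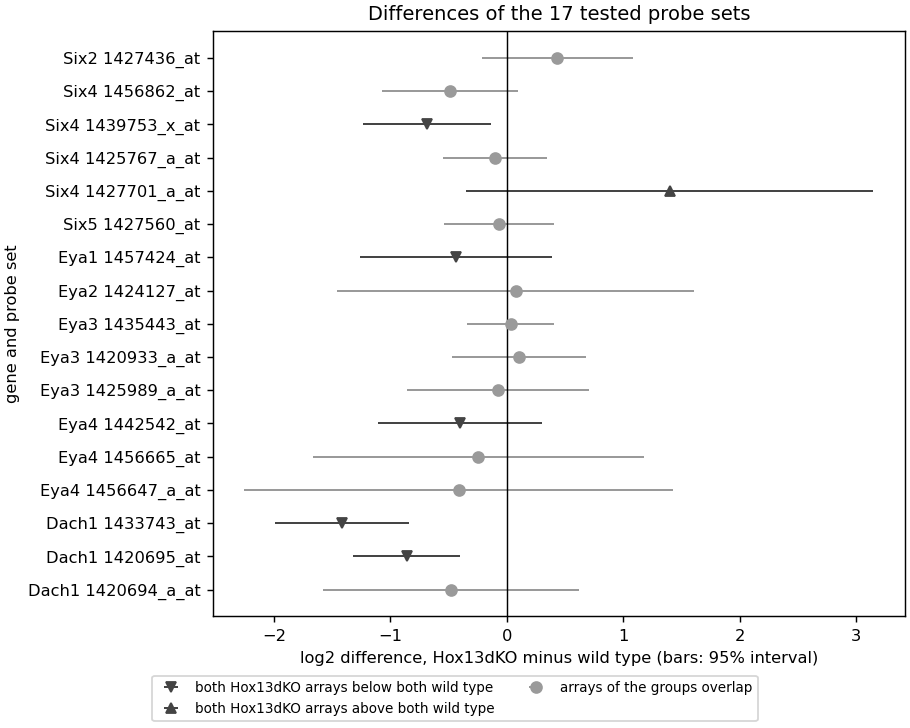
Log2 difference, Hox13dKO minus wild type, with its 95% interval for the 17 tested probe sets, downward triangles marking both Hox13dKO arrays below both wild-type arrays, the upward triangle the reverse, and circles overlap. The 2 lowest are Dach1 probe sets, at -1.42 and -0.86, and the intervals of Dach1 1433743_at, Dach1 1420695_at and Six4 1439753_x_at lie below 0.

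No gene passed the threshold in the lists of relatives, of cofactors and corepressors, of Pax genes, and of Six-family and Eya targets. Lists were read by the brightest probe set of each gene, where 0.306% of 13072 genes passed (0.161% higher and 0.145% lower), 37.2% did not overlap between groups, and the median log2 difference was -0.03. Among Six-family, Dach and Ski relatives 0 of 4 tested passed, with a median of -0.05. Dach2, the paralogue of Dach1, read 181 and 160 in Hox13dKO against 223 and 231 in wild type, below on both arrays (-0.41 ± 0.29 SE, adjusted p = 0.919 in limma). A dimmer Dach2 probe set under the filter, 1458012_at, went the other way, at 64.3 and 85.7 in Hox13dKO against 13.8 and 28.6 in wild type. Ski, the corepressor that shares the Dach fold, differed by 0.23 ± 0.15, and Skil by -0.07 ± 0.15, each with the opposite sign by a dimmer probe set (-0.018 for Ski and 0.20 for Skil). Six6, an eye and pituitary gene, was under the filter, at 39.1 and 53.3 in Hox13dKO against 7.52 and 5.19 in wild type, both below the floor.

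Among cofactors and corepressors that Six-family or Dach proteins use, 0 of 11 tested passed, and the median was -0.05. Tle1, a Groucho corepressor, read 1500 and 1448 in Hox13dKO against 831 and 1064 in wild type (0.65 ± 0.17 SE, adjusted p = 0.354 in limma), while by another probe set it differed by 0.05. Tle3 differed by -0.25 ± 0.14 (0.81 by its dimmest probe set) and Tle6 by -0.55 ± 0.39. Sobp, a Six-family cofactor known from the fly and the mouse ear, differed by 1.62 ± 0.83, with 1 wild-type array at the floor. The histone deacetylase gene Hdac3, which Dach1 recruits with its corepressor complex, differed by 0.09 ± 0.17.

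Of the Pax genes, which act upstream of or together with Six-family and Eya genes, 0 of 4 tested passed. Pax9, a gene of the anterior limb margin, read 525 and 392 in Hox13dKO against 105 and 154 in wild type (1.83 ± 0.31 SE, adjusted p = 0.0950 in limma). Pax3, of migrating muscle precursors, differed by -1.16 ± 0.88 by its brightest probe set and by 0.24 ± 0.79 by another, 1441743_at. By the third, 1430335_a_at, which was under the filter, it read 47.6 and 48.0 in Hox13dKO against 31.0 and 26.4 in wild type. Pax6 differed by -0.22 ± 0.68 and Pax8 by -0.03 ± 0.65, all from dim signals. Of genes known as Six-family or Eya targets in other tissues, 0 of 7 tested passed and 6 were positive, with a median of 0.16. The myogenic factor gene Myog differed by 3.54 ± 0.67 (adjusted p = 0.132), with 1 wild-type array at the floor. Igfbp5, a reported Six5 target, differed by 0.52 ± 0.18, Myc by 0.64 ± 0.26 and Ezr, the ezrin gene, by -0.32 ± 0.18.

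**Figure D4:**
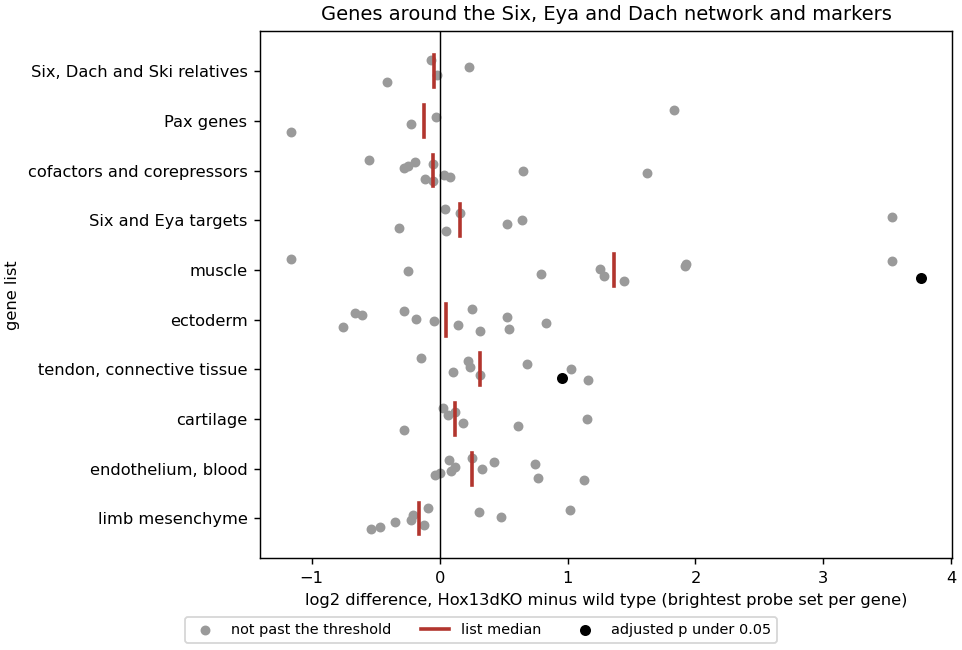
Log2 difference, Hox13dKO minus wild type, of each tested gene by its brightest probe set, in 10 lists, with a red bar at each list's median and black points for genes past an adjusted p of 0.05. The 4 network lists at the top hold no black point, and the muscle list has a median of 1.36.

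Markers of cell types that express Six-family, Eya or Dach genes were set beside these values. Muscle markers had 1 of 10 tested past the threshold, Actc1 (3.76 ± 0.41 SE, adjusted p = 0.0182 in limma), with 8 positive and a median of 1.36. Actc1 gave an adjusted p of 0.119 with Hox13dKO replicate 2 left out, 0.413 with no filter and 0.591 with no intensity trend. The summed signal of the list was 2108 and 4268 in Hox13dKO, against 920 and 878 in wild type. Myod1 differed by 1.93 ± 0.59, Myf5 by 1.25 ± 0.46 and Myh3 by 1.92 ± 0.46. Pax7 was under the filter by both of its probe sets, with signals close to or below the floor on all arrays. By 1452510_at both Hox13dKO arrays lay above both wild-type arrays, and by 1444596_at both lay below, so Pax7 gave no direction. The summed muscle signal was thus higher on both Hox13dKO arrays, but its largest single part there was Actc1. On those arrays Actc1 reached 880 and 2252 units, against 116 and 92.7 in wild type. The negative list members were Met (-0.25 ± 0.26), below on both Hox13dKO arrays, and Pax3 (-1.16 ± 0.88), whose arrays overlapped. Pax3 is the gene named above for migrating muscle precursors. Six4, Eya1, Eya2 and Eya4, all known from muscle precursors, read lower or overlapped by their brightest probe sets. The part of muscle cells in the member values was not tested.

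Ectoderm markers had 0 of 12 past the threshold, 5 with both Hox13dKO arrays below and 4 with both above, and a median of 0.05. Their summed signal was 9613 and 12066 in Hox13dKO against 9714 and 9354 in wild type. Fgf8, the signal of the apical ridge, differed by 0.83 ± 0.22 (SE) and Sp6 by -0.66 ± 0.22 (0.74 by a dimmer probe set). Tendon and connective tissue markers, as listed, had 1 of 9 tested past, Col3a1 (0.96 ± 0.13, adjusted p = 0.0457 in limma). Their summed signal was 16557 and 17532 in Hox13dKO against 11464 and 13190 in wild type. The list holds Tcf4, which is not a specific marker of these cells. Tcf4 gave 5503 and 5418 of that sum in Hox13dKO and 5098 and 7136 in wild type. The list median was 0.32, with 8 of 9 positive, 5 with both Hox13dKO arrays above and 0 with both below. Col1a1 differed by 1.16 ± 0.18, the matrix gene Lum by 1.02 ± 0.26 and the connective tissue factor gene Osr2 by 0.68 ± 0.22. The tendon gene Scx overlapped between groups (0.22 ± 0.29) and had the opposite sign by a dimmer probe set (-0.27). Col3a1 gave an adjusted p of 0.202 with Hox13dKO replicate 1 and 0.363 with Hox13dKO replicate 2 left out, 0.0589 with median centring, 0.321 with no filter and 0.601 with no intensity trend. Cartilage markers had 0 of 7 past (median 0.12), with summed signals of 18684 and 15645 against 13650 and 15143. Of the 7, 6 were positive, 3 had both Hox13dKO arrays above and 0 had both below. The 3 were Col2a1 (0.61 ± 0.14), Gdf5 (1.15 ± 0.32) and Col9a1 (0.18 ± 0.14, and -0.01 by a dimmer probe set). Col9a1 was the largest part of the sum on every array. Endothelial and blood markers had 0 of 11 past (median 0.25), with 94337 and 109962 against 77981 and 100899. The embryonic globin genes Hbb-bh1, Hbb-y and Hba-x gave most of that sum on every array, so it does not describe endothelium. In this list 4 genes had both Hox13dKO arrays above and 0 had both below. Among the 4 were the endothelial genes Cdh5 (0.77 ± 0.22, and 0.36 by a dimmer probe set) and Kdr (0.75 ± 0.26). The others were the blood genes Alas2 and Hbb-bh1. The endothelial genes Pecam1 (0.43 ± 0.27), Tie1 (0.25 ± 0.28), Tek (0.07 ± 0.29) and Emcn (0.004 ± 0.20) overlapped between groups. Limb mesenchyme markers had 0 of 10 past (median -0.16), with 36965 and 33598 against 36802 and 36839. Of these 10, 3 had both Hox13dKO arrays above and 4 had both below, where 37.2% of all genes did not overlap. Tbx5 differed by 1.02 ± 0.32 (SE), Prrx1 by 0.48 ± 0.16, Lhx2 by -0.47 ± 0.17 and Msx1 by -0.35 ± 0.15. The flat sum thus holds differences in both directions. The part of these cells in the Dach1 values was not tested.

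The genes whose pattern over the 4 arrays was closest to that of Dach1 1433743_at were sought among 13064 others by Euclidean distance between centred log2 signals. The pattern is that of 1 probe set, since by Dach1 1420695_at wild type replicate 2 was the higher one. The 5 closest were Pdzd2 (distance 0.16), Zfp979 (0.17), Zbtb7c (0.18), Slc8a1 (0.24) and AI504432 (0.27). Pdzd2 read 496 and 291 in Hox13dKO against 1005 and 892 in wild type, with a log2 difference of -1.32 ± 0.27 (SE) and an adjusted p of 0.162 in limma. Zfp979, at 59.0 and 34.8 in Hox13dKO against 120.1 and 96.8 in wild type, was nearer the brightness filter. Such likeness over 4 arrays is a description only.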

How the data were processed

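The deposited values are MAS5 intensity signals per probe set on a linear scale, made and scaled to a common trimmed mean by the authors, per the submitters' processing notes and the values themselves. Which MAS5 version was used is not stated. Detection calls and scanner files were not analysed here. From these values, signals below the 20th percentile (14.1) were raised to it, log2 was taken, and probe sets at or above the 40th percentile of mean log2 signal were tested, leaving out 64 control probe sets. limma 3.58.1 in R 4.3.3 (lmFit, eBayes with trend, two-sided) gave p-values, adjusted by Benjamini-Hochberg over 27022 probe sets. Of all probe sets, 34958 had 1 gene symbol, 932 several and 9211 none. All 21 member probe sets matched the RefSeq gene table of GRCm38.p6 by gene ID. Named genes are all members, the targeted genes and, from each list, those past the threshold or up to 4 with the lowest p. Six6, Pax7, Hdac3, Myf5, Prrx1, Twist1, Tcf4, Scx, Met, Hbb-y, Hba-x, Pecam1, Tie1, Tek and Emcn were named after their values were seen. The members and lists were chosen with earlier results of these data known. The steps were tested on simulated data. Alternatives were another normalization, floor, filter, eBayes setting or threshold, a replicate block, fewer probe sets and leaving out each array. Figures were drawn with matplotlib 3.10.9.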

Additional observations from a re-analysis of the deposited data

How the results depend on the processing

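The count of member probe sets past the threshold was 0 as reported and also under quantile normalization, no floor, a pseudocount, no filter, a stricter filter, no intensity trend, robust eBayes, no cross-hybridising probe sets and an adjusted p of 0.10. It was 1 with median centring and with 1 probe set per gene, which tests 13072 probe sets, and ranged from 0 to 2 when 1 array was left out. With the replicate number as a block it was 2. The calls were Dach1 1433743_at, at -1.38 (adjusted p = 0.0434 in limma) with median centring, -1.42 (0.0415) with 1 probe set per gene and -1.42 (0.000486) with the block, and Dach1 1420695_at, at -0.86 (0.0459) with the block. With 1 array left out, their differences ranged from -1.79 to -1.04 and from -1.05 to -0.67.

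Over all probe sets tested, 56 passed as reported, 202 with median centring, 0 with no filter (3159 at an unadjusted p under 0.05 in limma), 1 with no intensity trend, 95 with 1 probe set per gene, 111 at an adjusted p of 0.10, 418 with the replicate block, and 11 to 525 with 1 array left out. The cause was not tested. The replicate numbers are not stated to mark a litter or batch, and there are only 2 pairs. Deviations of same-numbered arrays from their group means correlated with r = 0.198.

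Of 240 member values under alternatives, 221 kept direction and side of the threshold, 7 passed it and 12 changed sign, all in fits without 1 array. Ranges over these fits were -0.25 to 0.042 for Six4 1425767_a_at, -0.16 to 0.025 for Six5, -0.51 to 0.67 for Eya2, -0.19 to 0.40 for Eya3 1420933_a_at, -0.32 to 0.17 for Eya3 1425989_a_at, -0.053 to 0.12 for Eya3 1435443_at, -1.40 to 0.57 for Eya4 1456647_a_at and -0.50 to 0.013 for Eya4 1456665_at.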

Other observations

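The 4 member probe sets under the brightness filter gave no call when the filter was dropped. Their log2 differences, Hox13dKO minus wild type, were then -0.15 ± 1.13 (SE) and 0.28 ± 0.36 for Eya1, 0.61 ± 0.57 for Eya3 and 0.50 ± 0.60 for Eya4, with adjusted p from 0.838 to 1 in limma. On Eya1 1421727_at and Eya4 1432461_at the Hox13dKO arrays differed several-fold from each other, at 15.1 and 87.7 and at 7.60 and 37.1.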
